A study of Homo sapiens with 4 samples.

Results

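ANGPTL4, the gene of angiopoietin-like 4, was examined through the H3K27ac regions listed with it in the authors' deposited table and through the other regions within 200 kb. The table lists 3 regions with ANGPTL4, of 91107 distinct regions in all. One of them overlaps the start of the gene, and 38 further regions lay within 200 kb of it on chromosome 19, measured between nearest ends. The locus was chosen by the fold change and p-value of the start region in the same table, so those values are a description and carry no test. The neighbours were chosen by position alone.

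The assay was ChIP-seq of H3K27ac, the acetylation of lysine 27 on histone H3 found at promoters and enhancers in use, and the cells were A375, an established line from a human melanoma. Vehicle libraries (2, isopropanol) stand beside octanoate libraries (2, at 1 mM), octanoate being a fatty acid of medium chain length. Each treatment lasted 48 hours, and the growth medium, DMEM with serum, was common to all libraries. Nothing in the labels says that the libraries of a group came from separate cultures. The authors' deposited table holds 1 comparison with no value per library and leaves the numerator of the fold change unnamed. Changes are therefore called positive or negative, the error of each is the standard error (SE) of the authors' model, and depth per library is unknown.

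Angiopoietin-like 4 is a secreted protein that inhibits lipoprotein lipase, the enzyme that releases fatty acids from triglyceride in circulating lipoproteins. Its gene is a classical target of the peroxisome proliferator-activated receptors (PPARs), nuclear receptors that fatty acids activate and that bind DNA with a retinoid X receptor (RXR) partner. Hypoxia-inducible factors and the glucocorticoid receptor also induce it, and it is best known from fat, liver and muscle. Tumour cells can express it as well.

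The promoter is shown first, because the region with the change lies over it. The 250 bases before the RefSeq start of ANGPTL4 (GRCh38.p14, plus strand, chr19:8363905-8364154) read as follows, 5′ to 3′, with capitals marking matches to the motifs named afterwards.

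ANGPTL4 promoter: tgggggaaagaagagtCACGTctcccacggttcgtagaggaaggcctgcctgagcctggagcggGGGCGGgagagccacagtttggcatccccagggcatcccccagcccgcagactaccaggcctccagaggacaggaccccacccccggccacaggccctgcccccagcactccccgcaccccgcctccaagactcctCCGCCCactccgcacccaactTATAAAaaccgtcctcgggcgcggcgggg

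Both strands were searched for TATAAA (the core of a TATA box, which positions transcription initiation), GGGCGG (the GC box bound by Sp1), ACGTG (the core of a hypoxia response element), AGGTCA (the half-site of nuclear receptors) and DR1, which is a pair of AGGTCA half-sites in the same direction with 1 base between them and is the classical PPAR-RXR element. TATAAA occurred once, beginning 29 bases before the start, and 9.0% of 22199 protein-coding promoter windows of the same length hold it. GGGCGG occurred 2 times, beginning 186 and 50 bases before the start on opposite strands, and 53.7% of windows hold it. ACGTG occurred once, on the minus strand, beginning 234 bases before the start, against 20.2% of windows. AGGTCA and DR1 had 0 matches here, and 10.5% and 0.0135% of windows hold them. The motifs did not overlap in this window, except that any DR1 match would also hold AGGTCA. These counts describe letters in 250 bases, and elements elsewhere under the region were not analysed here. Bases G and C made up 68.8% of the window, with a median of 62.0% over all windows.

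The region at the ANGPTL4 start was broad and carried a large positive fold change. It spans 17507 bases (chr19:8353745-8371252, coordinates as in the table, build hg38 per the submitters' processing notes). It begins 10.4 kb before the RefSeq start and ends 7.10 kb into the gene, so it covers 69.5% of the gene's 10216 bases and leaves the last 3.12 kb. In the authors' deposited table its log2 fold change was 1.57 with an SE of 0.203, a ratio of 2.96 (95% interval of the log2 value 1.17 to 1.96). No region of the authors' deposited table had a smaller p-value than its 1.09e-14 (adjusted 3.96e-10). For orientation, 608 regions of the authors' deposited table had an adjusted p-value under 0.05, which is 1.67% of the 36436 regions with one, and 601 of these were positive. As the rule used this contrast, nothing is read from that share here.

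The fold change has to be set against a table in which most regions are positive. Regions for which an adjusted p-value was computed, 36436 in number, are called tested. Their log2 fold changes had a median of 0.32 in the authors' deposited table, and 87.3% of them were positive. On chromosome 19 the median over 1571 tested regions other than this one was 0.41 in the authors' deposited table. With the median of all tested regions subtracted the ANGPTL4 start region had 1.24, and with the median of chromosome 19 it had 1.15, both computed from the authors' deposited table.

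The other 2 regions listed with ANGPTL4 were small, faint and imprecise, and both lay in the part of the gene that the broad region leaves uncovered. The first, of 200 bases (chr19:8373104-8373304), began 1.85 kb after the end of the broad region. It had a mean level of 2.82 and a log2 fold change of 1.59 with an SE of 0.974 in the authors' deposited table (unadjusted p-value 0.102). The second, of 228 bases (chr19:8373898-8374126), had a mean level of 2.85 and a log2 fold change of 0.59 with an SE of 0.98 in the authors' deposited table (unadjusted p-value 0.546). For both, the adjusted p-value of the authors' deposited table was read as not computed, as for every region with a mean level of 18.4421 or less. Errors of this size leave undetermined whether the end of the gene shares the change.

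**Figure D1:**
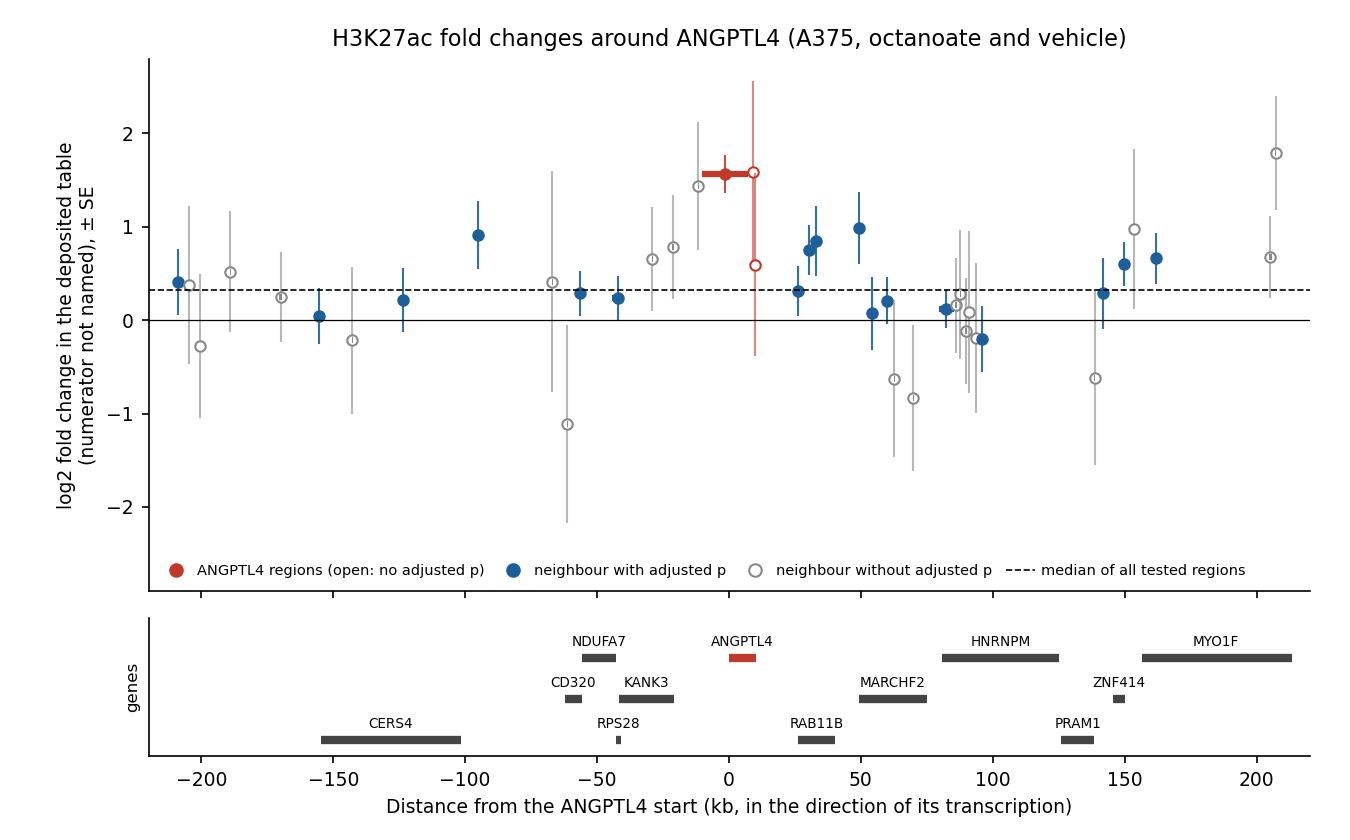
Each point is 1 region of the authors' deposited table, at its log2 fold change ± SE (y axis) and its distance from the ANGPTL4 start in kb (x axis), with thick horizontal bars for region width, open symbols for regions without an adjusted p-value, a dashed line at the median of all tested regions and protein-coding genes below. The ANGPTL4 start region stands at 1.57, above all 17 tested neighbours, of which the highest is at 0.99.

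By its level, the ANGPTL4 start region was the strongest of the locus, but not when its width was divided out. Its mean level in the authors' deposited table was 338, and 508 of the 91107 regions had a higher one. The highest neighbour reached 173 in the authors' deposited table, and 164 regions of the whole table were wider than the ANGPTL4 region. Per kb of width, however, it had a level of 19.3, computed from the authors' deposited table. This was below 13 of the 17 tested neighbours, whose levels per kb lay between 12.6 and 44.0 with a median of 24.2. Among all tested regions at gene starts in the authors' deposited table, 83.2% had a higher level per kb, with a median of 25.8. Among the 954 tested regions at least 10 kb wide the share was 78.6%, with a median of 24.6. The ANGPTL4 region therefore held 22.2% of the summed level and 26.7% of the summed width of the 41 regions of the locus. These levels are means over libraries, and which libraries were averaged is not settled. They do not say how the region stood under either treatment.

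**Figure D2:**
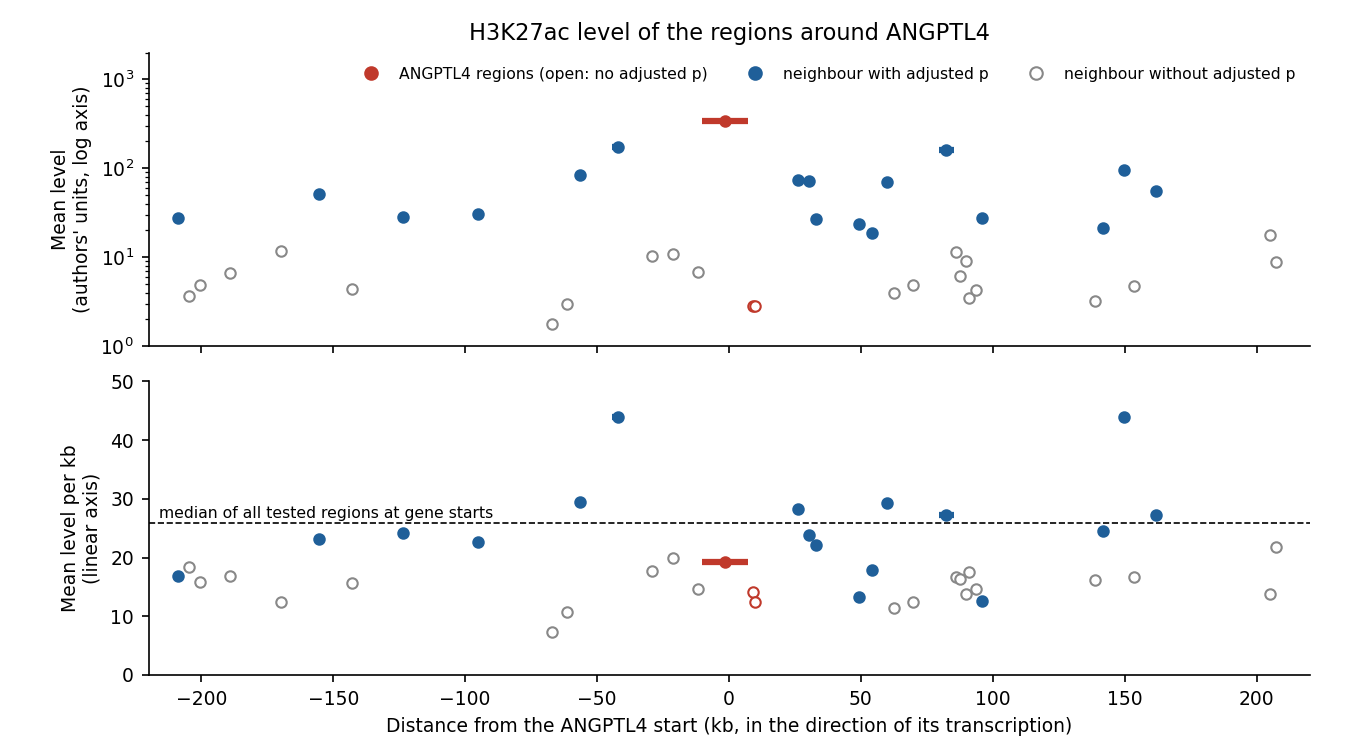
The mean level of each region in the authors' units (upper panel, log axis) and the same divided by region width in kb (lower panel, linear axis) are plotted against distance from the ANGPTL4 start in kb, with a dashed line at the median of all tested regions at gene starts. The ANGPTL4 start region is highest in the upper panel at 338, while in the lower one, at 19.3, it lies below 13 of the 17 tested neighbours.

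None of the neighbours had an adjusted p-value under 0.05, the threshold used here. Of the 38 neighbours, 17 were tested, and 0 had an adjusted p-value under 0.05 in the authors' deposited table, which DESeq2 made according to its column names, against 1.67% of all tested regions. The smallest adjusted p-value among them was 0.108. Without adjustment, 6 of the 17 tested neighbours (35.3%) had a p-value under 0.05 in the authors' deposited table, all positive, where 18.4% of all tested regions and 26.4% of those on chromosome 19 did. Over all 38 neighbours the count was 8 (21.1%), against 8.99% of all 91107 regions. The median log2 fold change of the 38 neighbours was 0.28 in the authors' deposited table (range -1.11 to 1.79), beside 0.28 for all regions. For the 17 tested neighbours it was 0.29, and 7 of them lay above and 10 below the median of all tested regions.

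Upstream of ANGPTL4, the nearest neighbour ended 0.975 kb before the broad region and had a like fold change with a large error. This region of 460 bases, listed with KANK3, the gene of an ankyrin-repeat protein of the KANK family, had a log2 fold change of 1.44 with an SE of 0.688 in the authors' deposited table (unadjusted p-value 0.0365, mean level 6.74). A pair of further faint regions within KANK3, 10.5 and 18.3 kb away, had 0.78 ± 0.557 and 0.66 ± 0.557 (SE) in the authors' deposited table. The first of these lies 7 bases from the KANK3 start, according to the authors' deposited table.

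The nearest tested region on that side, 29.8 kb away, covers the starts of NDUFA7, which encodes a subunit of respiratory complex I, and RPS28, which encodes a protein of the small ribosomal subunit. At a mean level of 173 it had a log2 fold change of 0.24 ± 0.234 (SE) in the authors' deposited table. The region at the start of CD320, the receptor that takes up vitamin B12 bound to transcobalamin, had 0.29 ± 0.239 in the authors' deposited table. A faint region within CD320 had -1.11 ± 1.06 (SE) in the authors' deposited table, at a mean level of 2.98. Farther upstream, the region listed at the start of CERS4, a ceramide synthase, had 0.04 ± 0.299 in the authors' deposited table. The 3 regions listed at distance 0 of a gene start on that side thus had fold changes below the median of tested regions, 0.32. The faint region 7 bases from the KANK3 start, at 0.78 ± 0.557 (SE), lay above it.

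Downstream of ANGPTL4, the promoter of the next gene was likewise near the median, while regions inside that gene were somewhat higher. RAB11B encodes a small GTPase of recycling endosomes, and its start lies 26.2 kb from that of ANGPTL4. The region over the RAB11B start had a mean level of 73.7 and a log2 fold change of 0.31 ± 0.269 (SE) in the authors' deposited table. The region 21.7 kb away within RAB11B had 0.75 ± 0.263 in the authors' deposited table, with the smallest adjusted p-value of the neighbours, 0.108. Another within RAB11B, 25.5 kb away, had 0.85 ± 0.370 (adjusted p-value 0.204).

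MARCHF2, listed under its older symbol MARCH2, encodes a membrane-bound ubiquitin ligase. The region listed at distance 0 of this gene had the largest fold change among tested neighbours, 0.99 ± 0.387 (SE) in the authors' deposited table (with adjusted p = 0.161, mean level 23.4). The following MARCHF2 regions, 46.5 and 51.7 kb away, had 0.07 ± 0.391 and 0.21 ± 0.251 in the authors' deposited table. The region 46.5 kb away also holds a RefSeq start of MARCHF2. At HNRNPM, which encodes a splicing regulator, the start region of 5802 bases had 0.12 ± 0.206 in the authors' deposited table at a mean level of 159. ZNF414, a zinc finger gene, had 0.60 ± 0.235 at its start in the authors' deposited table (with adjusted p = 0.158).

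Over the 7 neighbours listed at distance 0 of a gene, fold changes ran from 0.04 to 0.99 in the authors' deposited table, with a median of 0.29. The 21 untested neighbours had mean levels of 1.76 to 17.9 and SEs of 0.435 to 1.18 in the authors' deposited table. Grouped by distance in bands chosen after the values were seen, the log2 fold changes of the authors' deposited table had medians of 0.75 over 7 neighbours up to 30 kb away, 0.10 over 16 neighbours from 30 to 100 kb and 0.37 over 15 neighbours from 100 to 200 kb. For tested neighbours alone the same medians were 0.53, 0.21 and 0.35, over 4, 7 and 6 regions.

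At the edges of the window, the outermost region on the upstream side, listed with FBN3 at 198 kb, had a log2 fold change of 0.41 in the authors' deposited table. Beyond the limit, at 204 kb, the next one had 0.68. On the downstream side the outermost region, within MYO1F at 199.9 kb, had 1.79 ± 0.606 (SE) in the authors' deposited table, at a mean level of 8.72 and with no adjusted p-value. The next one beyond the limit, at 204 kb, had 1.03. The MYO1F and FBN3 regions are named for their place at the limit.

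Compared with regions of like width or level, the ANGPTL4 start region had the largest fold change. The locus was chosen by that value, so its rank is a description. The SE of the start region, 0.203, was undercut by 1.83% of tested regions in the authors' deposited table, whose median SE was 0.294. Among the 954 tested regions at least 10 kb wide, the authors' deposited table gives a median log2 fold change of 0.32 and extremes of -0.45 and 1.57, and 57 (5.97%) had an adjusted p-value under 0.05. The next largest were 1.08 ± 0.218 (SE) for a region listed with HMGA2, a chromatin architecture protein, 1.08 ± 0.196 for one listed with LVRN, a peptidase, and 1.05 ± 0.316 for one listed with VGF, AP1S1 and NAT16, in the authors' deposited table. Regions listed with SREK1 and GRAMD1B followed with 0.98 and 0.97. Of these 5, the region at VGF missed the threshold in the authors' deposited table (with adjusted p = 0.0515) and the others passed it. Among 2712 tested regions with a mean level from 0.5 to 2 times that of ANGPTL4, the largest other value was at HES7. This region, at the gene of a transcriptional repressor that acts in the Notch pathway, had 1.16 ± 0.226 in the authors' deposited table.

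**Figure D3:**
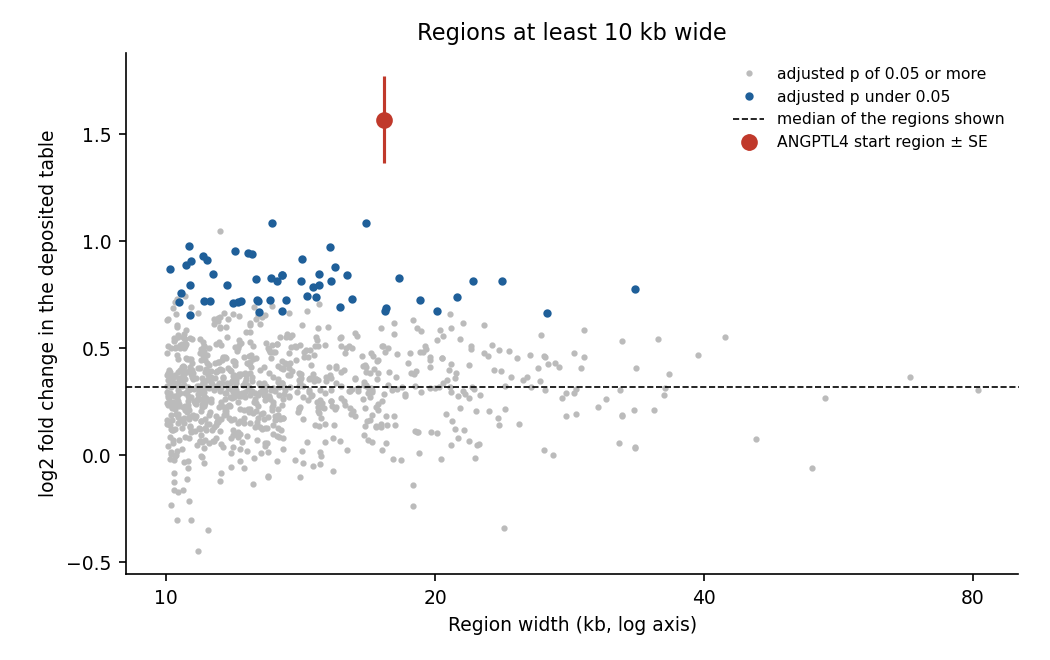
Log2 fold change (y axis, from the authors' deposited table) against region width in kb (x axis, log scale) for the 954 tested regions at least 10 kb wide, with blue points for adjusted p-values under 0.05, the ANGPTL4 start region in red with its SE and a dashed line at the median of 0.32. ANGPTL4, chosen by this value, stands at 1.57, with the next region at 1.08.

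Over all tested regions 17 had a larger log2 fold change than ANGPTL4 in the authors' deposited table, 2 of them at gene starts. The start regions with the fold changes closest to it were narrow and faint by comparison. They lay at TMEM59L (1.54 ± 0.468, SE), at DPYSL2 and PNMA2 (1.50 ± 0.473), at SLC24A3 (1.50 ± 0.358), at BMP6 (1.41 ± 0.391) and at RP11-105N13.4 (1.40 ± 0.432) in the authors' deposited table. BMP6 encodes a bone morphogenetic protein and SLC24A3 a sodium, potassium and calcium exchanger. Their mean levels in the authors' deposited table lay between 20.2 and 29.8, and their SEs were larger than that of ANGPTL4. SLC24A3 and BMP6 had adjusted p-values under 0.05 in the authors' deposited table (0.00893 and 0.0301). Likeness here is the absolute difference of 1 fold change in 1 comparison, 0.03 to 0.16 for these regions.

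The step between ANGPTL4 and its surroundings was measured in the same way for the other promoters with an adjusted p-value under 0.05, a comparison added after the data were seen. Of 86 such start regions in the authors' deposited table, 82 had neighbours within 200 kb, leaving aside regions listed with the gene itself. The start region exceeded the median of its neighbours by 1.28 at ANGPTL4, computed from the authors' deposited table. Over the 82 the median difference was 0.55, between extremes of -0.23 and 1.56. HMX3, a homeobox gene (1.56), UNC13A, which encodes a protein that primes synaptic vesicles (1.34), and MAPT, the gene of tau (1.32), had larger steps. Their medians rest on 7, 26 and 9 neighbours, and that of ANGPTL4 on 38. At least 1 neighbour had an adjusted p-value under 0.05 at 31 of the 82 start regions in the authors' deposited table, and none did at the other 51, ANGPTL4 among them. Over all tested regions the share was 1.67%. Tested neighbours numbered 17 at ANGPTL4, 0 at GPRC5C and 30 at GDF15, so nothing is read from these counts. These start regions were all picked by the same contrast, so the order is a description.

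**Figure D4:**
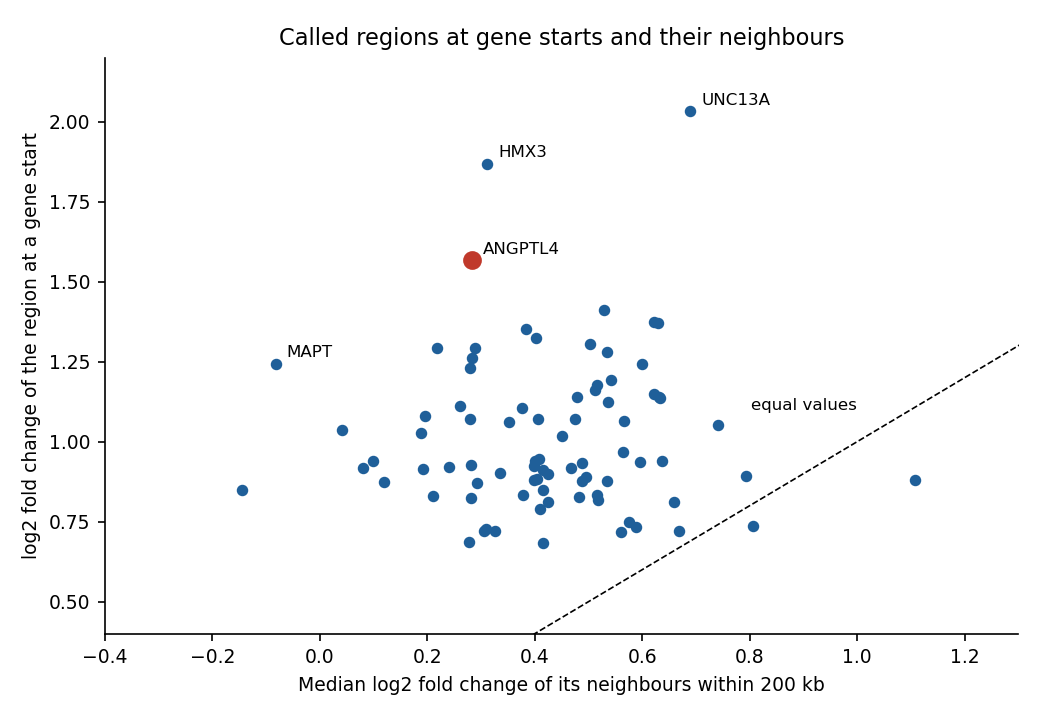
Each of the 82 points is a region at a gene start with an adjusted p-value under 0.05, with its log2 fold change (y axis, from the authors' deposited table) against the median log2 fold change of its neighbours within 200 kb (x axis), and a dashed line where the 2 are equal. ANGPTL4, in red at 1.57 over a neighbour median of 0.28, lies farther above the line than all but HMX3, UNC13A and MAPT.

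The relatives of ANGPTL4 had smaller fold changes at their starts, which is a description, since ANGPTL4 was chosen by its own large value. Of 11 genes of the angiopoietin and angiopoietin-like family, 8 were listed in the authors' deposited table, with 32 regions, of which 15 were tested. Leaving out the ANGPTL4 start region, which chose the locus, 1 of the other 14 tested regions had an adjusted p-value under 0.05, where the background is 1.67%, and 3 of the other 31 had an unadjusted p-value under 0.05 (9.68%, background 8.99%), all positive. The first was listed with ANGPT4, an angiopoietin, at a distance of 33522 bases from its start, with 1.23 ± 0.334 (SE) in the authors' deposited table (with adjusted p = 0.0282). The start regions of ANGPTL2, a secreted inflammatory mediator, and of ANGPTL5 had 0.77 ± 0.268 and 0.45 ± 0.272 in the authors' deposited table, with adjusted p-values of 0.107 and 0.339. At the starts of ANGPT1, the ligand that activates the TIE2 receptor, and ANGPTL1 the values were 0.15 ± 0.270 and -0.00 ± 0.223 in the authors' deposited table. ANGPTL6 had no region at its start, and the tested region nearest to it, 5973 bases away, had 0.50 ± 0.401 in the authors' deposited table. The median over the 31 family regions other than the ANGPTL4 start region was 0.50 in the authors' deposited table, beside 0.28 for all regions.

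In the pathway on which the protein acts, 17 of 19 genes were listed in the authors' deposited table, with 103 regions and 38 tested. One of these had an adjusted p-value under 0.05, again beside a background of 1.67%. Unadjusted, 21 of the 103 regions had a p-value under 0.05 in the authors' deposited table (20.4%), all positive, beside 8.99% of all regions. The region that passed after adjustment was listed with VLDLR, a receptor for triglyceride-rich lipoproteins, at 49317 bases from its start, with 1.23 ± 0.350 (SE) in the authors' deposited table (with adjusted p = 0.0380). LPL, the lipase that angiopoietin-like 4 inhibits, had 0.87 ± 0.313 at its start in the authors' deposited table (mean level 46.9, adjusted p = 0.117). VLDLR had 0.84 ± 0.285 at its own start (adjusted p-value 0.0954). LMF1, which the lipase needs to mature, had 0.35 ± 0.256, and LIPC, hepatic lipase, 0.30 ± 0.268 in the authors' deposited table. Proprotein convertases, which cleave angiopoietin-like 4, had 0.43 ± 0.214 at FURIN, 0.52 ± 0.221 at PCSK7 and 0.50 ± 0.297 at PCSK5 in the authors' deposited table, with adjusted p-values from 0.193 to 0.337. The lowest tested region of the list, -0.30 ± 0.381, was listed with SEL1L at a distance of -819518 bases. SEL1L acts in protein quality control in the endoplasmic reticulum, and the region at its start had 0.70 ± 0.442 with no adjusted p-value. The median was 0.30 over all 103 regions and 0.47 over the 38 tested ones in the authors' deposited table, beside 0.28 and 0.32 for the whole table.

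Among 17 known regulators of ANGPTL4, all were listed, with 273 regions and 116 tested, of which 1 had an adjusted p-value under 0.05 in the authors' deposited table (background 1.67%). Unadjusted, the count was 26 of 273 (9.52%, background 8.99%), all positive. The PPAR genes themselves had 0.38 ± 0.351 (PPARA), 0.42 ± 0.423 (PPARG) and 0.13 ± 0.310 (PPARD) at their starts in the authors' deposited table, each within 1 SE of the median of tested start regions, 0.35. HIF1A, the hypoxia-inducible subunit, had 0.20 ± 0.192 in the authors' deposited table at a mean level of 354, while EPAS1, its relative, had 0.82 ± 0.346 (adjusted p-value 0.191). FOXO1, a transcription factor restrained by insulin, had 0.76 ± 0.246 at its start (adjusted p-value 0.0793). The lowest tested region of the list, -0.56 ± 0.383, was also listed with FOXO1, at 117752 bases from its start, in the authors' deposited table. The median was 0.29 over the 273 regions and 0.35 over the tested ones.

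**Figure D5:**
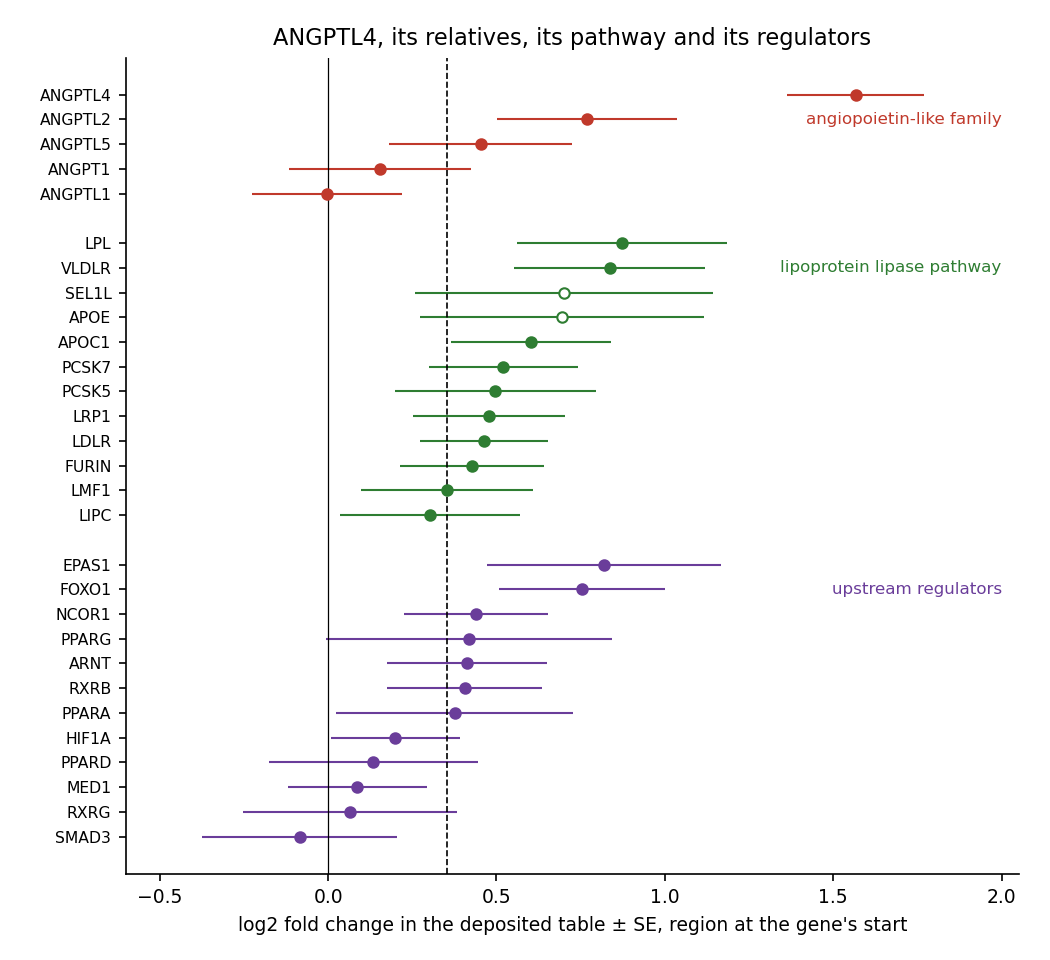
Points show log2 fold changes of the authors' deposited table, with bars of ± 1 SE, for regions at the starts of family members, lipoprotein lipase pathway genes and regulators, open symbols mark regions without an adjusted p-value, and the dashed line is the median of tested start regions, 0.35. ANGPTL4, chosen by this value, is at 1.57 and the next highest, LPL, at 0.87.

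The labelled cell type was checked on marker genes. Tested regions at gene starts were present for 8 of 12 markers of melanoma and the melanocyte lineage in the authors' deposited table, among them SOX10 (mean level 774), CSPG4 (803), PMEL (269) and MITF (98.4). TYR, TYRP1, DCT and MLANA, which serve pigment synthesis, had none. Of 15 markers of epithelium, blood, endothelium, liver, fat and muscle, 1 had a region at its start, EPCAM, at a mean level of 50.5 in the authors' deposited table. Among the 49 tested regions of these markers 1 had an adjusted p-value under 0.05, where the background is 1.67%, listed with CDH5, an endothelial cadherin, at 311786 bases from its start. Among the 43 tested regions of the melanoma markers 0 did by DESeq2. Unadjusted, 11 of all 104 melanoma marker regions had a p-value under 0.05 in the authors' deposited table (10.6%), all positive. For the markers of other cell types it was 13 of 120 (10.8%), 11 of them positive. Both shares stand beside 8.99% of all regions. The fat markers ADIPOQ, PLIN1 and LEP were among those without a region at their starts.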

How the data were processed

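The submitters' processing notes name Trim Galore, cutadapt, FastQC, Bowtie2, Picard, MACS2, featureCounts, DESeq2, bedtools 2.29.1 and hg38, with no settings. Only the authors' deposited table of 1 comparison was analysed. Per the file headers it gives a mean level (a normalized signal), a log2 fold change and its standard error, a score, a p-value and an adjusted p-value. Every mean level in the deposited table, on all 95312 lines, has at most 6 decimals when multiplied by 8 (tolerance 0.01 of the last decimal), while 47741 lines do when multiplied by 4. How many libraries were averaged is therefore not settled, and the labels describe 4. The score of the deposited table equals fold change over standard error to within 3.38e-14, and Benjamini-Hochberg adjustment over 36436 regions returned the deposited adjusted p-values to within 1.58e-14. An adjusted value of 1 was read as not computed.

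Lines repeating a region were merged. Gene starts came from RefSeq (GRCh38.p14). The start implied by the table lay within 1 kb of RefSeq for 91.9% of 7594 genes, and 5 bases away for ANGPTL4. Centring subtracted a median from the log2 fold changes and recomputed normal p-values from the authors' deposited standard errors. Python 3.11.15, pandas 2.3.3 and scipy 1.17.1 were used, and the procedures were tested on simulated data. Members, lists, window and alternatives were chosen with earlier results of these data known. Named were all ANGPTL4 regions, the nearest 6 neighbours on each side and those at gene starts, the 5 closest and the 5 wide regions described, and called or extreme members of each list. Values of some list members are not reported here. Among lists, other start regions were named for their role after their values were seen, as were HES7, HMX3, UNC13A and MAPT. Columns of single libraries that were left out numbered 0.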

Additional observations from a re-analysis of the deposited data

How the results depend on the processing

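No paired analysis was possible because values of single libraries were not analysed here, and for the same reason no library was left out in turn. The log2 fold change of the ANGPTL4 start region lay between 1.15 and 1.57 in 5 alternatives. Adjustment over all distinct regions and a threshold of 0.01 leave it unchanged by construction, and the others only subtract a median. The range is a description, since the locus was chosen by this value. Neighbours with an adjusted p-value under 0.05 numbered 0 under centring and under adjustment over all distinct regions. A threshold of 0.01 and a window of 100 kb also gave 0. Those 2 outcomes were fixed in advance, as no neighbour within 200 kb had passed 0.05. A window of 500 kb held 1, listed with ACTL9 (1.68, 309 kb away, named after its value was seen). Unadjusted, 6 tested neighbours and, in a count added after seeing the data, 8 of all neighbours had p-values under 0.05. The difference from the neighbours' median was 1.33 and 1.15 for windows of 100 and 500 kb.

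List results moved more. At gene starts alone, calls numbered 1 in the family (ANGPTL4 itself, also under centring, from 2 in all) and 0 in the pathway and regulator lists, with medians of 0.51 and 0.39 in the last 2. After centring on tested regions, calls were 1, 0 and 0. The medians, over all regions of each list with the ANGPTL4 start region included in the family, were 0.18, -0.021 and -0.035. They were reversed by construction in the pathway and regulator lists, whose uncentred medians, 0.30 and 0.29, lay below the median of tested regions, 0.32. Both lay above the median of all regions, 0.28. At a mean level of at least 10 the pathway median was 0.46, and the cause was not tested.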
